A study of Mus musculus with 28 samples.

Results

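Fatty acid oxidation and its control by peroxisome proliferator-activated receptors (PPARs) were followed in the mouse lateral ventricle choroid plexus through 31 listed genes, matched by symbol to Entrez identifiers among the 27179 identifiers counted. All 31 had enough counts to be tested in both age groups. The choroid plexus is the epithelial tissue that makes cerebrospinal fluid. RNA with poly(A) tails was sequenced from 28 male mouse samples in 7 groups of 4, each sample giving 1 library. Young wild-type C57/BL6 mice of 3 to 4 months gave 3 groups: undisturbed by day at zeitgeber time (ZT, hours since lights on) 6, undisturbed by night at ZT 18, and by day at ZT 6 with sleep prevented for the preceding 6 h (sleep-disrupted). Aged mice of 12 to 14 months were J20 positive (J20+) or their J20 negative littermates, called wild-type here, and were sampled undisturbed at ZT 6 or ZT 18. J20 mice carry a mutant human amyloid precursor protein transgene under a platelet-derived growth factor promoter that is active mainly in neurons. All animals were perfused with saline before dissection.

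Long-chain fatty acids are coupled to coenzyme A, passed into mitochondria on carnitine by the carnitine shuttle, and shortened in repeated rounds of beta-oxidation by acyl-CoA dehydrogenases, hydratases, 3-hydroxyacyl-CoA dehydrogenases and thiolases. Electrons from the dehydrogenases reach the respiratory chain through electron transfer flavoprotein (ETF) and its oxidoreductase. PPARs are lipid-activated nuclear receptors that bind DNA with a retinoid X receptor partner, preferentially at a pair of half-sites spaced by a single base (DR1), and many genes of this pathway are known PPAR alpha targets in liver.

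Promoters are shown for 4 genes that the results below turn on or that hold the motif nearest to a PPAR element: the 250 bases before the RefSeq start site, 5′ to 3′ on the gene's own strand, in build GRCm38.p6. Hadhb (chr5:30155003-30155252, plus strand) and Etfa (chr9:55512244-55512493, minus strand) were among the genes with the least overlap between young night and day, as was Acadm (chr3:153944644-153944893, minus strand) between young night and sleep disruption. Plin2 (chr4:86670060-86670309, minus strand) is a lipid droplet gene and a known PPAR target. Capitals mark GC boxes (GGGCGG) in Hadhb, a match to DR1 with at most 2 mismatches in Etfa and Plin2, and a nuclear receptor half-site (AGGTCA, here on the opposite strand) in Acadm.
Hadhb: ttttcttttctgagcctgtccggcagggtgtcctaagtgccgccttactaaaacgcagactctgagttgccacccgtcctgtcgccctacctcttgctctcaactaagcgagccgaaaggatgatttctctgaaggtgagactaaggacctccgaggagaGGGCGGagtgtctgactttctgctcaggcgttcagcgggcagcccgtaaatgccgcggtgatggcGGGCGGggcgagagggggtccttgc
Etfa: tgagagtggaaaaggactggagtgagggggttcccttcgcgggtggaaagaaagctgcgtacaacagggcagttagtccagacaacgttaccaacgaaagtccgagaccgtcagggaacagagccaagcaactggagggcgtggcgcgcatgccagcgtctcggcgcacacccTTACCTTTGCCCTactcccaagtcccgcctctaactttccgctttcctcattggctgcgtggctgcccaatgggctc
Plin2: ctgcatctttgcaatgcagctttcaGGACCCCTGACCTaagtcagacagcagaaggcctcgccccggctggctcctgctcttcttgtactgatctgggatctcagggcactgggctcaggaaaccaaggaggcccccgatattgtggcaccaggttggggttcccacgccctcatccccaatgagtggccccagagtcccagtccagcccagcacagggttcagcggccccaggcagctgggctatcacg
Acadm: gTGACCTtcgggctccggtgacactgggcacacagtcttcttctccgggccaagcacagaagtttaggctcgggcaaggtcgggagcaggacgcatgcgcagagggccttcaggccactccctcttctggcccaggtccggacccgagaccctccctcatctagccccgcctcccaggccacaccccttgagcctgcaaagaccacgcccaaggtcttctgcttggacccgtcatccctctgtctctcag

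RefSeq windows were available for 27 of the 31 genes, with 28 windows in all, and both strands were searched. A DR1 element, written as AGGTCA, any base N, then AGGTCA, was in 0 of the 28 windows and in 0.0494% of the 22271 windows of all genes counted. Allowing 2 mismatches, 3 windows held a match (Echs1, Etfa and Plin2), against 2.86% of all windows. In Etfa the match lies 77 to 65 bases before the start, and in Plin2 225 to 213 bases before the start used. That Plin2 start lies inside the annotated gene, which reaches base 86670217, so part of the printed Plin2 window is within the gene. The half-site AGGTCA, which the DR1 matches can contain, was in 6 windows (Acadm, Acadvl, Cpt1a, Cpt1c, Echs1 and Plin2), against 12.8%. The E-box CACGTG, which the clock proteins CLOCK and BMAL1 bind, and the D-box TTATGNAA, which clock output factors bind, were each in 0 of the windows, against 6.67% and 2.89% of all windows. GC boxes were in 18 windows, against 42.4%. Hadha and Hadhb, which encode both subunits of the mitochondrial trifunctional protein, lie head to head on chromosome 5, with 272 bases between their start sites at 30154980 and 30155253, so the Hadhb window printed above is also most of the space before Hadha.

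Counts summed to between 22466931 and 28982168 per young library and between 14632089 and 43885898 per aged library. The young libraries are batch 1 and the aged libraries batch 2 in the labels, so age and batch cannot be told apart, levels are not compared between the ages, and every test below lies within 1 batch. The 10 choroid epithelium markers were counted in every library, with a summed level of 21038 to 48182 CPM (counts scaled to the size of the library). Adipocyte markers, whose cells would bring their own PPAR targets, summed to at most 0.474 CPM, with Plin1 and Lep at 0 in all young libraries, and muscle markers to at most 14.8 CPM. Brain markers varied widely among aged libraries and less among young ones. Libraries that stood apart from their groups in such markers include young night library 4, J20+ day library 1, J20+ night library 2, and library 3 of both wild-type groups. Their values are given beside the results they touch.

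In the young choroid plexus at day, the 6 most abundant members per kilobase of transcript were ETF and beta-oxidation genes, and the receptors were far lower. Other genes of these roles stood lower, such as Etfb at rank 17 and the short-chain dehydrogenase gene Acads at rank 29 of 31. Etfa, the alpha subunit of ETF, stood highest at 318 ± 23.2 CPM per kilobase (SD, n = 4), followed by Hadhb at 182 ± 5.73. The ETF oxidoreductase gene Etfdh (129 ± 7.30), the thiolase gene Acaa2 (117 ± 14.97) and the long- and medium-chain dehydrogenase genes Acadl (116 ± 5.44) and Acadm (115 ± 4.58) came next, and these neighbours lay within their spread of each other. Cpt1a, the rate-limiting outer membrane enzyme of the carnitine shuttle, was at 91.3 ± 7.24, and its brain-type relative Cpt1c at 5.28 ± 0.920.

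Of the regulators, the coactivator gene Ppargc1a was at 28.05 ± 3.61 CPM per kilobase in young day libraries and Ppara at 10.6 ± 0.527. Ppard, at 0.375 ± 0.111, was the lowest of the 31 genes in this group. Above it came Angptl4, a PPAR target that encodes an inhibitor of lipoprotein lipase, at 0.609 ± 0.185. In aged wild-type day libraries the order began with Acaa2 (364 ± 37.2 CPM per kilobase), Etfb (294 ± 36.6), Etfa (181 ± 19.3) and Ucp2, a mitochondrial carrier gene (168 ± 25.2), and ended with Ppara (9.38 ± 2.70), Ppard (5.53 ± 0.345) and Angptl4 (1.31 ± 0.291). Etfb encodes the partner of Etfa in a dimer. With 56.2% GC in its transcripts, against a median of 49.9% over all genes, Etfb also varied with the GC trend of young libraries described with the sleep-disruption results. Of genes low in young day libraries, Ppard had 59.7% GC, Acads 59.6% and Cpt1c 57.4%. Of those high there, Etfa had 47.1%, Hadhb 46.2% and Acadl 45.3%. Ehhadh, with 47.0%, was low there as well, at 10.6 CPM per kilobase. The part of GC content in the order of levels was not tested.

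**Figure D1:**
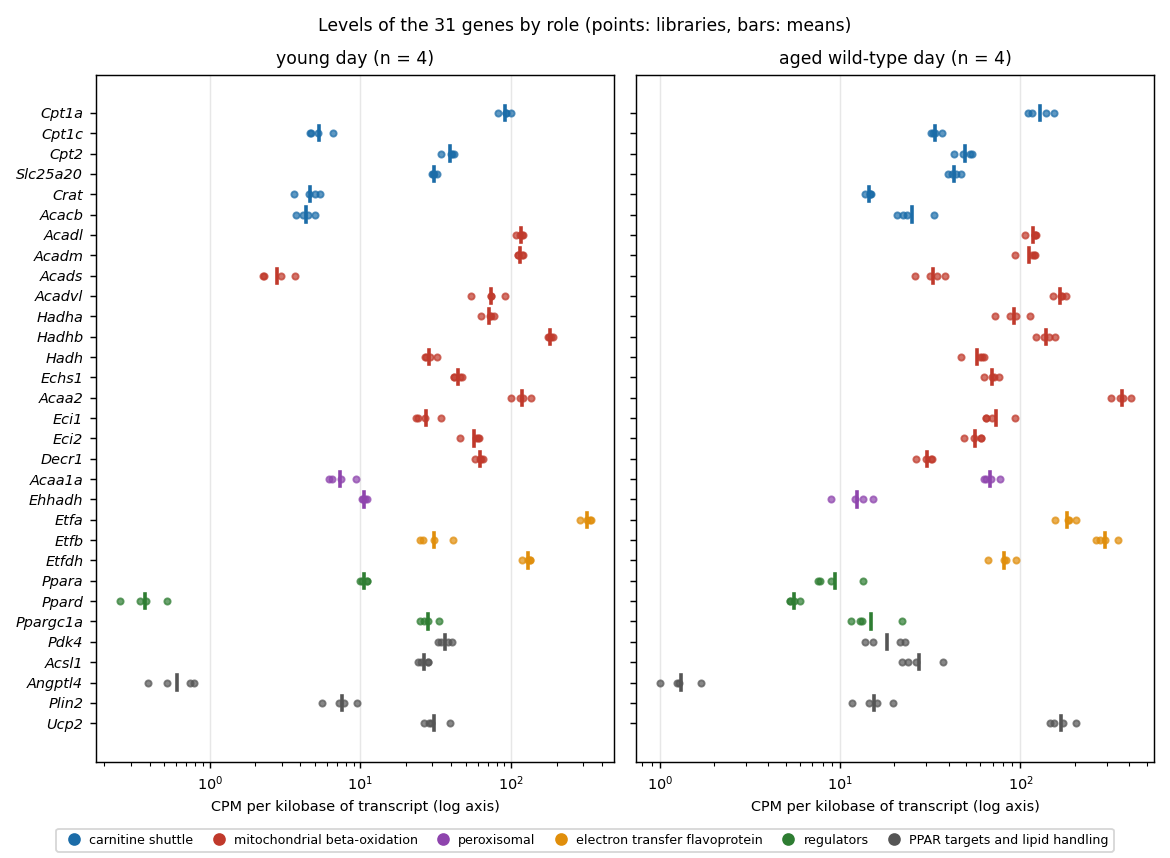
Levels of the 31 genes in young day and aged wild-type day libraries, in CPM per kilobase of transcript on log axes. Points are libraries (n = 4), bars are group means and colours are roles. In both groups some beta-oxidation and ETF genes reach over 100 CPM per kilobase, while Ppard and Angptl4 are the lowest 2 genes.

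Young night and day were compared to ask how the pathway differs with time of day. Night libraries had lower levels of several mitochondrial genes, 4 of them without overlap, and none of the 31 genes passed the test (log2 fold changes from -0.33 to 0.65). Of 12 mitochondrial beta-oxidation genes, 11 had negative values (median -0.19), while 4 of the 5 PPAR target and lipid handling genes had positive values (median 0.24). Decr1, which encodes the reductase that prepares unsaturated fatty acids for oxidation, had the smallest p.

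Decr1 (Entrez 67460, chromosome 4, 15917240 to 15945377) was at 7.54, 7.41, 7.58 and 7.52 log2 CPM in day libraries 1 to 4 and at 7.21, 7.18, 7.14 and 7.16 in night libraries. All 4 night libraries lay below all 4 day libraries. The difference was -0.33 ± 0.07 (log2 fold change ± SE, n = 4 per group), 1.26-fold lower, with an edgeR adjusted p of 0.107. Etfa (Entrez 110842, chromosome 9, 55454436 to 55512243) was at 8.79, 8.63, 8.87 and 8.85 at day and 8.50, 8.43, 8.49 and 8.51 at night, again without overlap, a difference of -0.30 ± 0.07 (adjusted p = 0.128). Etfdh (Entrez 66841, chromosome 3, 79603788 to 79628767) was at 8.30, 8.16, 8.34 and 8.34 at day and 8.14, 8.01, 7.92 and 7.99 at night, so its lowest day library lay just above its highest night library (-0.26 ± 0.07, adjusted p = 0.179). Hadhb, the beta subunit of the trifunctional protein (Entrez 231086, chromosome 5, 30155253 to 30184593), was at 8.58, 8.52, 8.62 and 8.53 at day and 8.43, 8.46, 8.34 and 8.28 at night, without overlap (-0.18 ± 0.06, adjusted p = 0.368). These were the 4 members that lay lower at night without overlap, 4 of 31 against 3.12% of all genes. None lay higher without overlap, against 1.78%.

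By edgeR 0 of the 31 genes were called, against 0.267% of the 14983 genes tested, and 6 had an unadjusted p under 0.05, against 9.39% of all genes. DESeq2 called 4 (Decr1, Etfa, Etfdh and Hadhb, all lower) and 1.87% of its genes, and limma-voom with quality weights called 8 (4 higher and 4 lower) and 18.9%. The median over the 31 genes was -0.06 (12 positive and 19 negative values), against 0.02 over all genes. That median depends on night library 4: it was 0.04 without it, with 17 positive and 14 negative values, while Decr1 was at -0.34, Etfa at -0.31, Etfdh at -0.26 and Hadhb at -0.15. Night library 4 had the highest summed macrophage markers of the young libraries, 200.5 against 70.1 to 99.7 CPM in the other night libraries. It also had the highest young neural score (defined with the aged results), 3.73 against 2.04 to 2.63 in the other night libraries, and summed astrocyte markers of 375 against 55.1 to 89.8 CPM. Its GC trend, the change of log2 counts per 10 points of transcript GC, was also the most negative, -0.47 against 0.17 to 0.31 in the other night libraries. The part of these features in the result was not tested. The labels do not state that each sample came from a separate animal, so p-values here measure the spread between these samples.

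Sleep disruption was compared with undisturbed day to ask whether loss of sleep at the same clock time moves the pathway. Most members had slightly positive values, and none passed the test. Of the 31, 26 were positive (median 0.11, range -0.18 to 0.81, against a median of 0.004 over all genes), including all 6 carnitine shuttle genes and 11 of 12 beta-oxidation genes. Without day library 4 the median was 0.06. Angptl4 (Entrez 57875, chromosome 17, 33774900 to 33781575) had the smallest p, at 1.41, 1.34, 0.45 and 0.86 log2 CPM in day and 1.93, 2.06, 1.69 and 1.68 in sleep-disrupted libraries. All sleep-disrupted libraries lay above all day libraries, by 0.81 ± 0.28 (1.75-fold, edgeR adjusted p = 0.861), at a level of about 1 CPM per kilobase. In young night libraries Angptl4 was at 1.86, 1.98, 1.18 and 0.83, a range that overlaps both other groups.

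Ppard followed, at 0.27, 0.83, 0.41 and -0.15 log2 CPM at day and 0.38, 1.11, 0.78 and 1.59 after sleep disruption, with overlap (0.68 ± 0.31, edgeR adjusted p = 0.861). Etfb was at 4.78, 5.19, 4.55 and 4.48 at day and 4.68, 5.44, 5.38 and 5.63 after sleep disruption, also with overlap (0.55 ± 0.25, adjusted p = 0.861). Both genes are rich in GC, and the GC trend of the same libraries was -0.12, 0.17, -0.16 and -0.40 at day and -0.23, 0.13, 0.08 and 0.31 after sleep disruption. For the trend and for both genes, library 2 was highest and library 4 lowest at day, and library 4 was highest and library 1 lowest after sleep disruption. With a loess correction for GC content, chosen after seeing the data, the difference of Ppard was 0.44. The part of the GC trend in the values of Ppard and Etfb was not tested. The medium-chain dehydrogenase gene Acadm (0.11 ± 0.08) and the carnitine carrier gene Slc25a20 (0.13 ± 0.07) also lay higher without overlap, by narrow margins. For Acadm the highest day library was at 7.934 and the lowest sleep-disrupted library at 7.943 log2 CPM. For Slc25a20 these were at 5.84647 and 5.84735.

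In all, 3 of 31 members lay higher without overlap after sleep disruption, against 0.921% of all genes, and 0 lay lower, against 1.17%. Of these members, Acadm and Slc25a20 were apart by narrow margins only. By edgeR 0 of 31 were called, and 0% of all genes. Of the members 2 had an unadjusted p under 0.05, against 2.40%, and DESeq2 and limma-voom each called 0.

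Young night was also set against sleep disruption, groups that differ in both clock time and treatment. The night libraries are those of the comparison with day, and the sleep-disrupted libraries those of the comparison above, so the 3 young comparisons are not independent. All 12 mitochondrial beta-oxidation genes and all 3 ETF genes had negative values at night (medians -0.32 and -0.26), and none passed the test. Decr1 was at 7.65, 7.51, 7.50 and 7.36 log2 CPM in sleep-disrupted libraries, all above its night values (-0.33 ± 0.07, edgeR adjusted p = 0.0949). Etfdh varied little among sleep-disrupted libraries, at 8.30, 8.31, 8.32 and 8.31, and lay lower at night without overlap (-0.29 ± 0.07, adjusted p = 0.123). Acadm (Entrez 11364, chromosome 3, 153922353 to 153944643) was at 7.94, 7.95, 8.004 and 8.04 after sleep disruption, at 7.92, 7.93, 7.82 and 7.83 at day and at 7.69, 7.85, 7.67 and 7.46 at night. Its night libraries lay below every sleep-disrupted library (-0.31 ± 0.08, adjusted p = 0.139) and overlapped the day libraries.

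In this comparison 7 members lay lower at night without overlap (Slc25a20, Acadl, Acadm, Hadhb, Decr1, Etfa and Etfdh), 7 of 31 against 4.38% of all genes, and 0 lay higher, against 3.43%. By edgeR 0 were called, against 0.380% of all genes, and 12 had an unadjusted p under 0.05, against 9.70%. DESeq2 called the same 7, all lower, and 2.10% of its genes, and limma-voom called 12 (1 higher and 11 lower) and 7.36%. With the GC correction, Decr1 (-0.35, edgeR adjusted p = 0.0418) and Acadm (-0.34, adjusted p = 0.0207) passed, beside 0.719% of all genes. The median over the 31 was -0.19 (range -0.40 to 0.22), against 0.008 over all genes, and -0.11 without night library 4. Of the 3 regulators 2 had positive values. Ppara was at 5.19, 5.28, 5.29 and 5.14 at day, 5.11, 5.09, 5.20 and 5.34 after sleep disruption and 5.44, 5.38, 5.34 and 5.29 at night, with overlap between sleep disruption and night (0.18 ± 0.07, edgeR adjusted p = 0.446). Ppargc1a, at 7.41, 7.33, 7.51 and 7.74 at day, 7.59, 7.22, 7.32 and 7.15 after sleep disruption and 7.30, 7.34, 7.29 and 7.58 at night, overlapped between all 3 groups. Ppard was at 1.18, 1.42, 0.63 and 0.59 at night.

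Beyond the 31 genes, a wider list, of which 102 genes are reported, covered fatty acid activation and uptake, peroxisomal oxidation, ketone bodies, other PPAR partners and targets, other mitochondrial oxidation and lipolysis. Of these, 90 were tested in young libraries. By edgeR 0 of the 90 passed in each young comparison, with 10 at an unadjusted p under 0.05 between night and day (11.1%, against 9.39% of all genes), 11 between night and sleep disruption (12.2% against 9.70%) and 1 between sleep disruption and day (1.11% against 2.40%). Values at night against day were negative for 45 of the 90, and for 11 of 17 peroxisomal genes outside the 31.

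The smallest p in both young night comparisons belonged to Etfbkmt, the methyltransferase of ETF beta (-0.31 ± 0.07 against day and -0.35 ± 0.07 against sleep disruption, edgeR adjusted p = 0.119 and 0.0613), and to Cat, the peroxisomal catalase (-0.22 ± 0.06 and -0.27 ± 0.06, adjusted p = 0.205 and 0.0892). The third was the lipid droplet gene Plin3 against day (-0.28 ± 0.08, adjusted p = 0.211) and the thioesterase gene Acot1 against sleep disruption (-0.49 ± 0.12, adjusted p = 0.138). For each of these genes all night libraries lay below all libraries of the group compared. Acot1 can share reads with its near-identical neighbour Acot2, so the values of both are uncertain. Such sharing of reads was not tested here. Between sleep disruption and undisturbed day the smallest p belonged to Acot2 (0.27), the acyl-CoA binding protein gene Dbi (0.22) and the lipid transfer gene Scp2 (-0.17), each with an adjusted p of 0.861.

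**Figure D2:**
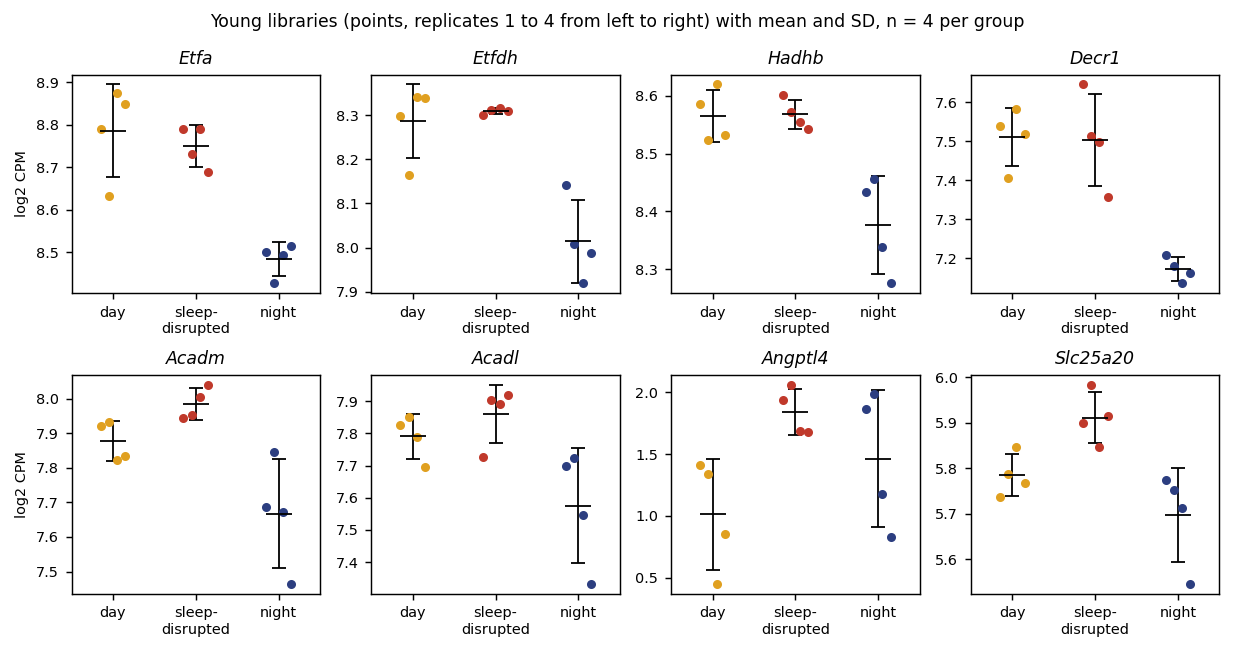
Log2 CPM of 8 members in the 12 young libraries, with mean and SD (n = 4 per group). Night libraries lie below all day libraries in Etfa, Etfdh, Hadhb and Decr1. Sleep-disrupted libraries lie above all day libraries in Angptl4 and, by narrow margins, in Acadm and Slc25a20.

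In aged wild-type mice, night libraries were lower than day libraries over most of the pathway, with a median of -0.47 (6 positive and 25 negative values from -1.13 to 0.34, against a median of 0.03 over all genes), and none of the 31 passed the test. Beta-oxidation genes had 11 of 12 negative values (median -0.46) and regulators 2 of 3 (median -0.62). The smallest p belonged to Acacb, which makes the malonyl-CoA that holds back carnitine transfer at the mitochondrion. Acacb (Entrez 100705, chromosome 5, 114146321 to 114250761) was at 7.61, 7.68, 7.51 and 8.19 log2 CPM at day and 6.93, 7.07, 7.05 and 6.73 at night, without overlap. Its difference was -0.75 ± 0.18, 1.68-fold lower (n = 4 per group, edgeR adjusted p = 0.144). Hadha, the alpha subunit of the trifunctional protein (Entrez 97212, chromosome 5, 30119423 to 30154980), was at 8.57, 8.45, 8.17 and 8.82 at day and 7.53, 7.03, 7.73 and 7.16 at night, also without overlap (-1.07 ± 0.31, 2.09-fold lower, adjusted p = 0.144). Acadm was at 7.89, 7.94, 7.59 and 7.92 at day and 6.95, 6.97, 7.56 and 6.91 at night, where night library 3 lay just below the lowest day library (-0.65 ± 0.19, adjusted p = 0.144).

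Cpt1a was at 9.22, 8.89, 8.96 and 9.36 log2 CPM at day and 8.11, 7.65, 8.47 and 7.68 at night (-1.04 ± 0.32), and Etfdh at 7.61, 7.64, 7.31 and 7.84 at day and 6.46, 6.04, 6.92 and 6.09 at night (-1.13 ± 0.37). Both pairs of groups were apart, each with an edgeR adjusted p of 0.144. Ppara was at 4.98, 4.78, 4.75 and 5.56 at day and 4.36, 4.02, 4.47 and 4.18 at night (-0.72 ± 0.29, adjusted p = 0.145), and Ppargc1a at 6.41, 6.37, 6.21 and 7.15 at day and 5.95, 5.82, 5.90 and 5.88 at night (-0.62 ± 0.31, adjusted p = 0.172), both without overlap. Ppard went the other way, at 4.30, 4.11, 4.197 and 4.13 at day and 4.29, 4.51, 4.29 and 4.45 at night, with overlap (0.28 ± 0.12, adjusted p = 0.152).

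In all, 15 of 31 members lay lower at night without overlap, against 18% of all genes, and 0 lay higher, against 7.31%. By edgeR 0 were called, against 0.0124% of the 16065 genes tested, and 17 had an unadjusted p under 0.05, against 31.1% of all genes. DESeq2 called 7, all lower, and 9.08% of its genes. Limma-voom called 23 (1 higher and 22 lower) and 51.7%, and edgeR on the wild-type libraries alone 16, all lower, and 26.2%. With J20+ day library 1 and night library 2 left out, edgeR called 22 (1 higher and 21 lower), beside 44.4% of all genes. The members called thus ran from 0 to 23 over these fits.

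Markers of brain tissue moved with this comparison. The neural score, the mean log2 CPM of 20 neuron, oligodendrocyte and astrocyte markers, was 3.99, 2.62, 5.40 and 1.24 in wild-type day libraries and 7.19, 6.96, 4.52 and 6.43 in wild-type night libraries. Day library 3 had summed oligodendrocyte markers of 2504 CPM, against 109 to 236 in the other day libraries, and night library 3 had summed neuron markers of 123 CPM, against 796 to 936 in the other night libraries. Summed choroid epithelium markers ran from 40212 to 48182 CPM at day and from 21038 to 33823 CPM at night, without overlap. In bulk tissue, fewer cells of a type and less RNA per cell cannot be told apart. With the neural score as a covariate the median over the 31 genes was -0.05 (11 positive and 20 negative values, 0 called, against 0.0311% of all genes), with Hadha at -0.51, Cpt1a at -0.54 and Ppara at -0.05. The mean of the 31 genes followed the same libraries. It was 6.86, 6.87, 6.64 and 6.98 log2 CPM at day and 6.22, 6.14, 6.68 and 6.22 at night, where library 3, the night library with the lowest neural score, was the highest and above day library 3. The GC trend of night libraries was also higher (0.16 to 0.39, against -0.30 to 0.06 at day). Correction for it moved the median of all genes from 0.03 to -0.17, and the 31 genes then had a median of -0.63, below that shift, with 0 called, against 0.0270% of all genes.

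**Figure D3:**
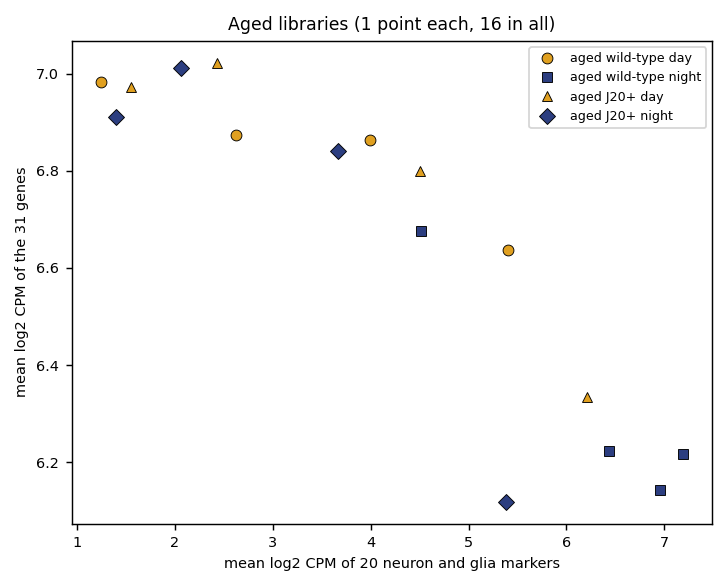
Mean log2 CPM of the 31 genes against the mean log2 CPM of 20 neuron and glia markers in the 16 aged libraries, 1 point each. Libraries with a marker mean under 4, none of them wild-type night, lie between 6.84 and 7.02, and the 5 lowest points (6.12 to 6.33) are 3 wild-type night libraries, J20+ day library 1 and J20+ night library 2.

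In J20+ mice the night-day values were spread around 0, with a median over the 31 genes of -0.07 (12 positive and 19 negative values from -0.36 to 0.42, against a median of 0.02 over all genes). Crat, the carnitine acetyltransferase that buffers acetyl-CoA, had the smallest p (Entrez 12908, chromosome 2, 30400476 to 30416017). It was at 5.64, 6.03, 5.92 and 5.99 log2 CPM at day and 6.04, 6.56, 6.17 and 6.19 at night, all night libraries above all day libraries by a narrow margin (0.34 ± 0.12, edgeR adjusted p = 0.652). Etfb was at 7.51, 7.82, 7.85 and 7.86 at day and 7.84, 8.73, 8.03 and 8.01 at night, with overlap (0.42 ± 0.20), and Acadm at 7.20, 7.72, 8.17 and 7.82 at day and 7.45, 6.95, 7.74 and 7.54 at night, with overlap (-0.33 ± 0.19). The adjusted p was 0.652 for each.

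By edgeR 0 of 31 were called in J20+ mice, against 0.0436% of all genes, and 1 had an unadjusted p under 0.05, against 7.41%. DESeq2 and limma-voom each called 0, against 0.496% and 1.71% of all genes. In 1 member, Crat, the night libraries lay higher without overlap, against 2.38% of all genes, and 0 lay lower, against 1.05%. The extremes of Crat and Etfb at night belong to J20+ night library 2, and without it their differences were 0.21 and 0.17, while the median of the 31 became 0.10 (26 positive and 5 negative values). Without J20+ night library 3 it was -0.21. J20+ night library 2 had summed choroid epithelium markers of 22423 CPM, against 43254 to 45374 CPM in the other J20+ night libraries. It also had a neural score of 5.38 and the highest GC trend of the aged libraries, 0.51.

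Between J20+ and wild-type mice at day the values had a median of -0.04 over the 31 genes (11 positive and 20 negative values, against 0.03 over all genes), which was 0.06 without J20+ day library 1 and -0.12 without J20+ day library 3. By edgeR 0 were called, and 0% of all genes, and 0 had an unadjusted p under 0.05, against 1.87%. DESeq2 called 0 and limma-voom 1, Ppargc1a (higher), beside 14.7% of all genes. The smallest p belonged to Eci1, an enoyl-CoA isomerase of unsaturated fatty acid oxidation, which was at 6.39, 6.91, 6.49 and 6.38 log2 CPM in wild-type and 5.89, 6.36, 6.40 and 6.46 in J20+ libraries, with overlap (-0.27 ± 0.18, adjusted p = 0.989). Etfb was at 8.03, 8.27, 7.95 and 7.88 in wild-type libraries, all above the J20+ day values given above by a narrow margin (-0.27 ± 0.20, adjusted p = 0.989). It was the 1 member lower without overlap, against 0.579% of all genes, and 0 lay higher, against 0.448%. Crat was at 6.06, 6.09, 6.07 and 5.98 in wild-type libraries, with overlap (-0.14 ± 0.12, adjusted p = 0.989). Of the regulators, Ppara was at 4.40, 4.98, 5.38 and 5.51 in J20+ day libraries, Ppard at 4.18, 4.22, 4.29 and 4.34, and Ppargc1a at 6.02, 6.49, 7.09 and 6.97, each overlapping wild-type. J20+ day library 1, the lowest J20+ day library in all 3 of these regulators, had a neural score of 6.20 and summed choroid epithelium markers of 27614 CPM, against 36718 to 46325 CPM in the other J20+ day libraries. A p above the threshold does not show that the genotypes were alike.

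Between J20+ and wild-type libraries at night the values had a median of 0.31 (27 positive and 4 negative values, against -0.01 over all genes), and none of the 31 passed. The median was 0.21 without J20+ night library 3 and 0.51 without wild-type night library 3. Acacb was at 7.96, 7.55, 8.16 and 7.97 log2 CPM in J20+ night libraries, all above the wild-type night values given above. The difference was 0.89 ± 0.18, 1.85-fold (n = 4 per group, edgeR adjusted p = 0.0917). Ppara was at 5.23, 4.27, 5.65 and 5.70 in J20+ night libraries, where library 2 alone lay within the wild-type range (0.96 ± 0.29, adjusted p = 0.0917). Acsl1, which activates long-chain fatty acids, was at 6.08, 5.67, 6.18 and 5.66 in wild-type and 7.03, 5.51, 7.31 and 6.9998 in J20+ night libraries, where library 2 lay below and the others above all wild-type libraries (0.85 ± 0.31, adjusted p = 0.0992). Ppargc1a was at 6.77, 5.58, 7.20 and 7.14 in J20+ night libraries, in the same pattern (0.81 ± 0.31, adjusted p = 0.105), and Ppard at 4.17, 4.73, 4.47 and 4.45, overlapping wild-type.

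In 1 member, Acacb, J20+ night libraries lay higher without overlap, against 5.79% of all genes, and 0 lay lower, against 2.13%. By edgeR 0 of 31 were called, against 0.00622% of all genes, and 10 of 31 had an unadjusted p under 0.05, a share near the 31.9% of all genes. DESeq2 called 5, all higher, and 19.2% of its genes, and limma-voom 25 (24 higher and 1 lower) and 72.1%. Without J20+ night library 2, edgeR called 21 of 31 (20 higher and 1 lower), beside 57.7% of all genes. Without that library and J20+ day library 1 together, edgeR called 24, beside 62.9%. The neural score was 3.67, 5.38, 2.06 and 1.40 in J20+ night libraries, of which libraries 1, 3 and 4 lay below all wild-type night libraries and library 2 lay among them. With the score as a covariate the median of the 31 was -0.05 (13 positive and 18 negative values, 0 called, and 0% of all genes), with Ppara at 0.20 and Acacb at 0.52. Correction for GC content moved the median of all genes to 0.20 and that of the 31 to 0.47, above that shift, with 0 called, and 0% of all genes.

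The difference between the genotypes in their night-day change was tested as an interaction, the J20+ change minus the wild-type change, which uses the same 16 libraries as the 4 aged comparisons above. Of the 31 genes 28 had positive values (median 0.38, against 0.06 over all genes). The median was 0.24 without J20+ night library 3 and 0.59 without wild-type night library 3. Acacb (0.87 ± 0.25, edgeR adjusted p = 0.359), Ppara (0.90 ± 0.41, adjusted p = 0.393) and Cpt2, the inner membrane enzyme of the carnitine shuttle (0.54 ± 0.27, adjusted p = 0.421), had the smallest p. Cpt2 was at 6.84, 6.96, 6.67 and 6.99 log2 CPM in wild-type day, 6.08, 6.06, 6.74 and 6.19 in wild-type night, 6.18, 6.73, 7.02 and 6.92 in J20+ day and 6.84, 6.19, 6.96 and 7.03 in J20+ night libraries. Wild-type night library 3 lay within the day range and J20+ night library 2 within the wild-type night range. By edgeR 0 were called, and 0% of all genes, and 2 had an unadjusted p under 0.05, against 12.4%. DESeq2 called 0, against 0.0565% of its genes, and limma-voom 19, all higher, beside 33.3% of all genes. Without J20+ night library 2, edgeR called 10, beside 20.9%. With J20+ day library 1 left out as well it called 0, and 0% of all genes. With the neural score as a covariate the median was -0.06. Correction for GC content moved the median of all genes to 0.29 and that of the 31 to 0.58.

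Of the 102 genes of the wider list, 94 were tested in aged libraries and 0 were called by edgeR in the 5 aged comparisons. Those at an unadjusted p under 0.05 numbered 36 between wild-type night and day (38.3%, against 31.1% of all genes), 7 between J20+ night and day (7.45% against 7.41%), 1 between genotypes at day (1.06% against 1.87%), 33 between genotypes at night (35.1% against 31.9%) and 12 in the interaction (12.8% against 12.4%). Of 17 other peroxisomal genes, 13 had negative values between wild-type night and day, and 13 had positive values between genotypes at night. In wild-type mice at night the smallest p belonged to the thioesterase gene Acot7 (0.83 ± 0.19), the peroxisomal transporter gene Abcd2 (2.03 ± 0.52) and the lipid droplet gene Plin3 (-0.73 ± 0.20), each with an edgeR adjusted p of 0.144. In J20+ mice at night it belonged to the lipid droplet genes Cidea (-2.38 ± 0.53, adjusted p = 0.287) and Plin4 (0.69 ± 0.16, adjusted p = 0.335) and to Ivd, a dehydrogenase of leucine breakdown (0.39 ± 0.14, adjusted p = 0.652). Between genotypes at day it belonged to Cidea (1.93 ± 0.53), the malonyl-CoA decarboxylase gene Mlycd (-0.23 ± 0.11) and Dbi (-0.31 ± 0.15), each with an adjusted p of 0.989. At night it belonged to the dehydrogenase genes Acad12 (0.87 ± 0.20) and Acad10 (0.64 ± 0.16) and to Acot7 (-0.79 ± 0.19), each with an adjusted p of 0.0917. In the interaction it belonged to Abcd2 (-3.06 ± 0.73), Acot7 (-0.95 ± 0.27) and Cidea (-2.60 ± 0.74), each with an adjusted p of 0.359. Abcd2 was at 3.21, 3.28, 0.77 and 2.43 log2 CPM in wild-type night libraries, against 0.59 to 0.97 in wild-type day libraries. It ran from 1.05 to 2.63 in J20+ day, highest in library 1, and from 0.29 to 1.17 in J20+ night libraries. Wild-type night library 3 had the lowest neural score of its group, 4.52. The part of brain tissue in the Abcd2 values was not tested. The Cidea values rest on J20+ day libraries 1 and 2, at 4.24 and 3.10 log2 CPM, against 1.27 and 1.44 in J20+ day libraries 3 and 4, 0.70 to 0.94 in J20+ night, 0.99 to 1.30 in wild-type day and 1.17 to 1.47 in wild-type night libraries. Without J20+ day library 1, whose neural score was 6.20, they were -1.46 between J20+ night and day, 1.00 between genotypes at day and -1.62 in the interaction.

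The night-day change was measured in 3 cohorts that share no libraries, young wild-type, aged wild-type and aged J20+. Of the 31 genes, 16 had negative values in all 3: Cpt1a, Slc25a20, Acadl, Acadm, Acadvl, Hadha, Hadhb, Hadh, Echs1, Acaa2, Eci2, Decr1, Ehhadh, Etfa, Etfdh and Acsl1. This was 51.6% of the members, against 19.2% of the 14713 genes tested in both tables. The count rests on single libraries. Without young night library 4 it was 11 (all genes 18.5%), without J20+ night library 2 it was 4 (Acaa2, Acadm, Acadvl and Hadha, all genes 7.33%), and without both it was 2 (Acadm and Hadha, all genes 7.31%). With all libraries another 4 genes had positive values in all 3, namely Cpt1c, Crat, Etfb and Ppard, 12.9% of the members against 22.1% of all genes. The estimates varied in size between cohorts. Etfdh was at -0.26 ± 0.07 in young, -1.13 ± 0.37 in aged wild-type and -0.23 ± 0.36 in J20+ mice. Hadha was at -0.24 ± 0.12, -1.07 ± 0.31 and -0.31 ± 0.30 in the same order. No test pooled the 3 cohorts, and none of these values passed the threshold within its own. The edgeR interaction over all aged libraries called 0 of the 31 genes, and young and aged changes were not tested against each other. In J20+ night library 2 Etfdh was at 5.46 log2 CPM, against 7.59 to 7.77 in the other J20+ night libraries. In aged wild-type mice summed choroid epithelium markers were also lower at night (21038 to 33823 CPM, against 40212 to 48182 CPM at day). With the neural score as a covariate the median of the 31 genes in that cohort was -0.05, against -0.47 without it. With the same covariate the median was -0.17 in J20+ mice, against -0.07 without it, and -0.08 in young mice, against -0.06 without it. The part of tissue content in the size of the changes was not tested.

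The peroxisomal members were both negative in aged wild-type mice, and in the other cohorts their values were near or within their standard error. Ehhadh, the bifunctional enzyme of peroxisomal oxidation, was at -0.08 ± 0.07, -0.97 ± 0.35 and -0.04 ± 0.35 in the 3 cohorts. The thiolase gene Acaa1a was at 0.24 ± 0.23, -0.07 ± 0.11 and 0.12 ± 0.11. Acaa1a can share reads with its near-identical copy Acaa1b and is therefore uncertain. Such sharing of reads was not tested here. Pdk4, a PPAR target that slows glucose oxidation, was at 0.04 ± 0.14, -0.13 ± 0.24 and 0.21 ± 0.24, Plin2 at 0.30 ± 0.17, -0.71 ± 0.28 and -0.16 ± 0.28, and Ucp2 at 0.24 ± 0.22, -0.28 ± 0.18 and 0.14 ± 0.18. Among the members that were positive in all 3 cohorts, GC content was 57.4% for Cpt1c, 57.9% for Crat, 56.2% for Etfb and 59.7% for Ppard. Those negative in all 3 had 45.3% (Acadl) to 54.1% (Cpt1a). Acaa1a (60.8%), Acads (59.6%) and Acacb (57.5%), with as high a GC content, were not positive in all 3, and a link to GC content was not tested.

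**Figure D4:**
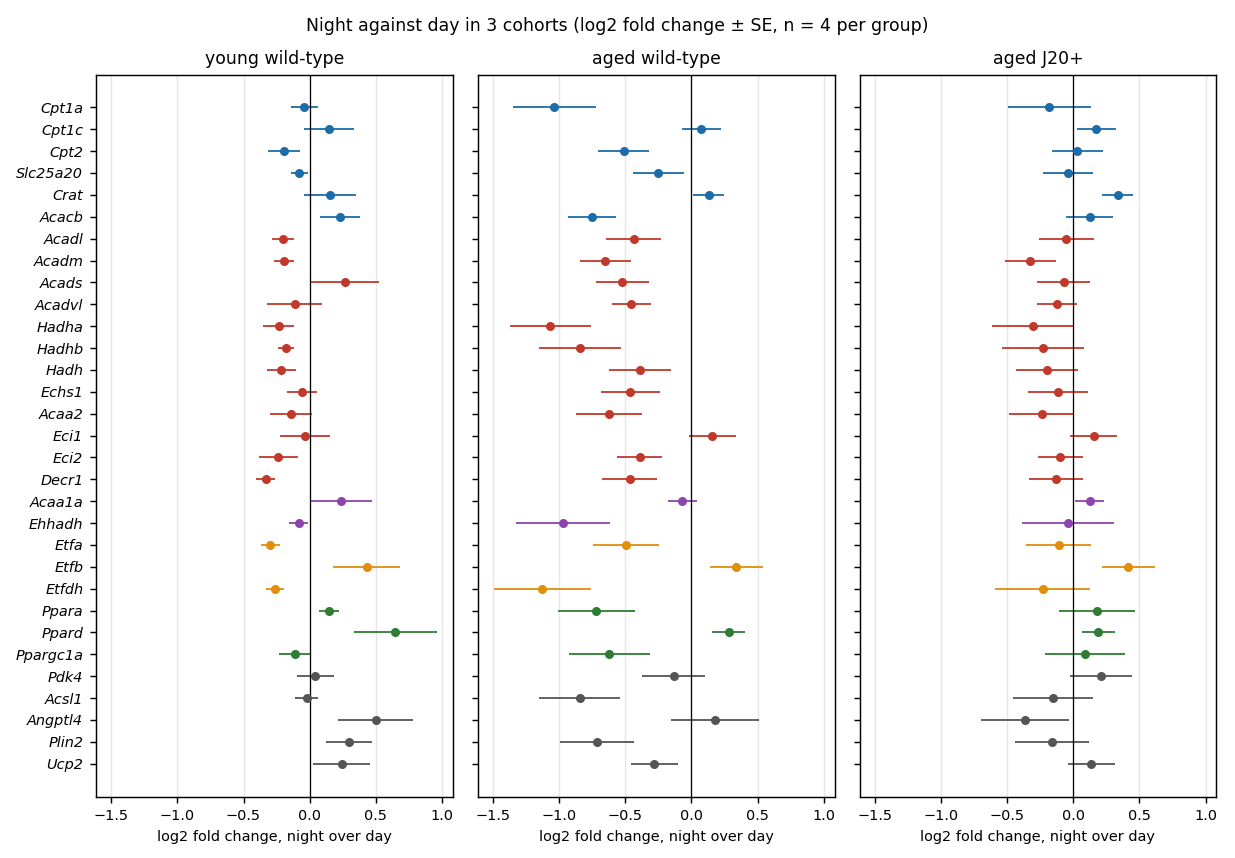
Log2 fold change of night over day ± SE for the 31 genes in young wild-type, aged wild-type and aged J20+ mice (n = 4 per group), coloured by role as in the plot of levels. Most mitochondrial genes lie left of 0 in each panel with all libraries, with the largest distances in aged wild-type mice, but without J20+ night library 2 the J20+ values were positive for 26 of 31 genes (median 0.10). Crat, Etfb, Cpt1c and Ppard lie right of 0 in each panel drawn.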

How the data were processed

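The deposited files hold raw counts per Entrez gene, 1 table for 12 young and 1 for 16 aged libraries. Per the labels' protocols, stranded poly(A) libraries were sequenced on a NovaSeq. Per the submitters' processing notes, the authors aligned to mm10 with HISAT2 2.2.1 and counted with featureCounts 2.0.1, and also used Picard 2.18.2, FastQC 0.11.8, DESeq2 and cutadapt. The strand setting was not given in the sources used here, nor was the annotation. All 28 columns were used. Symbols came from RefSeq GRCm38.p6, which matched 25275 of 27179 identifiers (93.0%). Transcript length was the joined exons of each gene's GENCODE basic transcripts. GC was the mean over its GENCODE transcripts, basic or not, except retained introns.

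Each table was fitted over all its genes with edgeR 4.0.16 (R 4.3.3): TMM scaling, filterByExpr by group, and the robust quasi-likelihood test, with Benjamini-Hochberg adjustment over all genes and a threshold of 0.05. Levels are log2 CPM with a prior count of 2. A difference is a log2 fold change with its standard error. The script was tested on simulated data. Depth was at least 22466931 counts per young library and 14632089 per aged library. It limits mostly the low genes Ppard, Angptl4 and Acads in young libraries and Angptl4, the lowest member there, in aged ones.

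Alternatives were RLE scaling, no filter, DESeq2 1.42.0, limma-voom (limma 3.58.1) with quality weights, the neural score as a covariate, the compared groups alone, and each library left out in turn. A loess correction for GC content (span 0.3), and leaving out J20+ day library 1 and night library 2 together, were chosen after seeing the data. By rule, all members could be named, with values in every library for the regulators and, per comparison, for any called member and the 3 of lowest p; of the wider list, called genes and the 3 of lowest p were named, and 1 gene is not reported here. Library values of Hadhb in young and of Cpt1a and Etfdh in aged wild-type libraries were added after their values were seen. The members, gene lists and tests were chosen with earlier results of these data known.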

Additional observations from a re-analysis of the deposited data

Results flagged for a closer look

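In groups of 4, a library was singled out where its distance to the nearest other as a share of the group's range exceeded Dixon's critical value. Chance singles out about 1 in 20 groups, or 10.85 of the 217 groups checked here, and 31 were singled out. J20+ night library 2 accounted for 12 of them, each with the lowest log2 CPM of its group: Slc25a20 5.57, Acadl 6.88, Hadha 6.85, Hadhb 6.42, Hadh 5.64, Echs1 5.66, Acaa2 7.64, Eci2 6.08, Ehhadh 3.69, Etfa 6.70, Etfdh 5.46 and Plin2 3.48. This library also stood apart in choroid epithelium markers and GC trend, and their part in these values was not tested.

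Young night library 4 accounted for 7. It was lowest in log2 CPM for Cpt2 (5.85), Crat (3.88), Acads (1.97), Acadvl (6.44), Eci2 (5.83) and Ucp2 (6.38), and highest for Pdk4 (7.34). Wild-type night library 3 was highest in log2 CPM for 5 genes, Acadl (7.85), Acadm (7.56), Acaa2 (8.91), Eci2 (6.55) and Etfa (7.92). Wild-type day library 3 was lowest for Acadl (7.67) and Acadm (7.59). J20+ day library 1 was lowest for Slc25a20 (5.73) and Etfb (7.51).

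The other 3 were Eci2, lowest in young day library 4 (6.33), Acadl, lowest in sleep-disrupted library 1 (7.73), and Pdk4, lowest in sleep-disrupted library 4 (6.40), all in log2 CPM.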

How the results depend on the processing

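The edgeR fit over all groups called 0 of the 31 genes in each of the 8 comparisons, and so did RLE scaling, no filter and the neural covariate. The number called rose in other fits, given here with the share of all genes called in brackets. DESeq2 called 4 (1.87%) between young night and day and 7 (2.10%) between young night and sleep disruption. It called 7 (9.08%) between wild-type night and day and 5 (19.2%) between genotypes at night. Limma-voom called 8 (18.9%), 12 (7.36%), 23 (51.7%) and 25 (72.1%) in the same order. It also called 1 (14.7%) between genotypes at day and 19 (33.3%) in the interaction. GC correction gave 2 (0.719%) between young night and sleep disruption, and the wild-type libraries alone 16 (26.2%) between night and day. With J20+ day library 1 and night library 2 left out together, 22 (44.4%) were called between wild-type night and day. In that setting 24 (62.9%) were called between genotypes at night. Each library of the compared groups was also left out in turn (libraries of other groups were not left out singly). In those fits members called ran from 0 to 21 between genotypes at night and from 0 to 10 in the interaction. Both counts were highest without J20+ night library 2, where 57.7% and 20.9% of all genes were called. Members called were 0 in each such fit of the other 6 comparisons. None of the 3 members of lowest p in each comparison changed sign under any alternative run. The median of the 31 genes between genotypes at day, -0.04, was 0.05 with limma-voom and 0.06 with both J20+ libraries left out, and ran from -0.12 to 0.06 with single libraries left out. Genes called over the whole table ran from 15 to 109 between young night and day and from 22 to 86 between young night and sleep disruption, highest without young night library 4, and from 2 to 100 between wild-type night and day, highest without wild-type night library 3. The cause of these changes was not tested. No paired analysis was possible because the replicate numbers follow accession order and pair no samples across groups. Depth limits Ppard, Angptl4 and Acads in young libraries.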
